A study of Homo sapiens with 8 samples.

Results

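The accessible chromatin around 10 genes for matricellular and microfibril glycoproteins was followed in MCF10A, a non-tumorigenic epithelial cell line from the human breast. The genes are TNC, THBS1, SPARC, POSTN, TGFBI, FBN1, LTBP1, LTBP2, VCAN and BGN. Open DNA was mapped by ATAC-seq, an assay whose transposase inserts sequencing adapters into nucleosome-free DNA. The cells had been given solvent, or TGFβ1 at 5 ng/ml for 6, 24 or 72 h. Each of the 4 conditions had 2 replicates, and peaks were called on both together, so that 1 peak list exists per condition. No value per replicate was used here, so no spread between replicates and no test is given for any difference below. All conditions come from the same line, and no group is a genome-edited clone.

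The peaks of the 4 lists were merged into 126658 regions wherever they shared at least 1 bp. A region belonged to a gene when it overlapped the gene body or the 50 kb on either side, which gave 225 regions for the 10 genes. The level of a region is its AUC, the area under the peak caller's significance curve, summed over the peaks of a list in that region. The smallest AUC that the authors kept was 200. This limit applied to each peak, so the level of a region without a called peak is unknown and may exceed 200 in sum. Levels of the TGFβ1 lists were scaled to solvent at regions within 3 kb of a transcription start site (TSS), which divided the 6 h list by 1.36, the 24 h list by 1.301 and the 72 h list by 1.19. A region rose when its scaled AUC was at least 2 times the larger of the solvent AUC and 200, and it fell when the solvent AUC exceeded the larger of the scaled AUC and the scaled threshold as much. After scaling, the median log2 ratio over all regions with a peak in both lists was 0.06 for the 6 h list, 0.12 for 24 h and 0.15 for 72 h, and the changes of the genes are to be read against that shift. A promoter peak, within 1 kb of the TSS, was present in every list for 7 of 8 mammary epithelial marker genes (the canonical TSS of TP63 had none), for 0 of 4 blood and 0 of 3 endothelial marker genes and for 1 of 3 fibroblast marker genes, PDGFRA.

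Matricellular proteins are secreted into the extracellular matrix, where they modulate the contact of cells with their surroundings rather than carry load. Microfibrils are fibrillin polymers that scaffold elastic fibres and, through the latent TGFβ binding proteins, hold TGFβ in the matrix in an inactive form. Several of these genes are known targets of TGFβ signalling and are used as markers of epithelial-mesenchymal transition (EMT), in which epithelial cells take on traits of mesenchymal cells.

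Over the 10 gene windows, accessibility rose at 19 of the 225 regions (8.44%) by 6 h, 44 (19.6%) by 24 h and 60 (26.7%) by 72 h. Among all 126658 regions, 4.03% had risen by 6 h, 11.7% by 24 h and 15.3% by 72 h. The sets are not alike, since the median width was 523 bp for the member regions and 384 bp for all regions. Where a solvent peak was called, the median solvent AUC was 863 and 754. The part of width and level in the shares that rose was not tested. By count, the rises were concentrated in few windows, which differ in their number of regions. At 72 h TGFBI held 15 among 34 regions, LTBP1 15 among 42, FBN1 9 among 24 and TNC 7 among 21. THBS1 held 4 among 20, SPARC 4 among 25, POSTN 2 among 5 and LTBP2 2 among 30. VCAN held 1 among 13 and BGN 1 among 11. Without the TGFBI window, 11 of 191 regions (5.76%) had risen by 6 h, 31 (16.2%) by 24 h and 45 (23.6%) by 72 h. Without TGFBI and LTBP1, 30 of 149 (20.1%) rose at 72 h. When the AUC was divided by the bases each peak covered, 26.7% of the member regions and 28.4% of all regions rose at 72 h. The share that rose thus showed no excess on that scale. The AUC threshold is not a level per base, so there a missing peak was set at the smallest AUC per base of its list. How many of these rises were newly called regions was not counted. For regions with a peak in both lists, the median log2 ratio per base was 0.15 for the members and 0.06 for all regions.

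Falls were few. None of the 225 regions fell at 6 h, 2 (0.889%) fell at 24 h and 4 (1.78%) at 72 h, beside 0.209%, 0.970% and 1.43% of all regions. Regions without a solvent peak that had one after TGFβ1 numbered 41 (18.2%) in the 6 h list, 58 (25.8%) in the 24 h list and 56 (24.9%) in the 72 h list, slightly below the 19.3%, 27.6% and 27.0% of all regions. Solvent peaks that were not called after TGFβ1 numbered 1 (0.444%), 4 (1.78%) and 7 (3.11%), beside 0.465%, 1.21% and 2.24% of all regions. The share of newly called regions around these genes was thus close to the background.

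Of the 60 regions that had risen at 72 h, 35 (58.3%) already had a peak in solvent and 25 had none, whereas 43.2% of all regions that rose had one. At 6 h, 17 of the 60 (28.3%) had risen, and at 24 h 42 (70.0%), against 23.3% and 65.9% of all regions that rose at 72 h. In 46 of the 60 (76.7%) the scaled AUC never decreased from one list to the next, close to the 77.1% of all regions that rose. Both TSS-proximal and distal regions contributed. Among the 82 regions within 3 kb of any annotated TSS, 24 (29.3%) rose at 72 h, where 8.93% of all proximal regions did, and among the 143 distal regions 36 (25.2%) rose, where 18.6% of all distal regions did. The annotated TSSs include those of other genes and internal ones of the members. Within 1 kb of the canonical TSS of a member, only the FBN1 promoter region rose. Some of the other proximal rises contain another annotated TSS, such as internal ones of TGFBI and LTBP1. By the summit of their strongest peak, 27 of the 60 lay in introns, 18 upstream and 12 downstream of the genes, 2 in a UTR and 1 in another exon. Of 4 regions with that summit in a coding exon, 0 rose. Wide regions can reach beyond the place of their summit. For 52 of the 60 the nearest protein-coding TSS was that of the gene itself. The 144 regions with a peak in solvent and at 72 h had a median log2 ratio of 0.32, and 116 of them (80.6%) were higher at 72 h, beside 0.15 and 63.9% for all such regions.

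**Figure D1:**
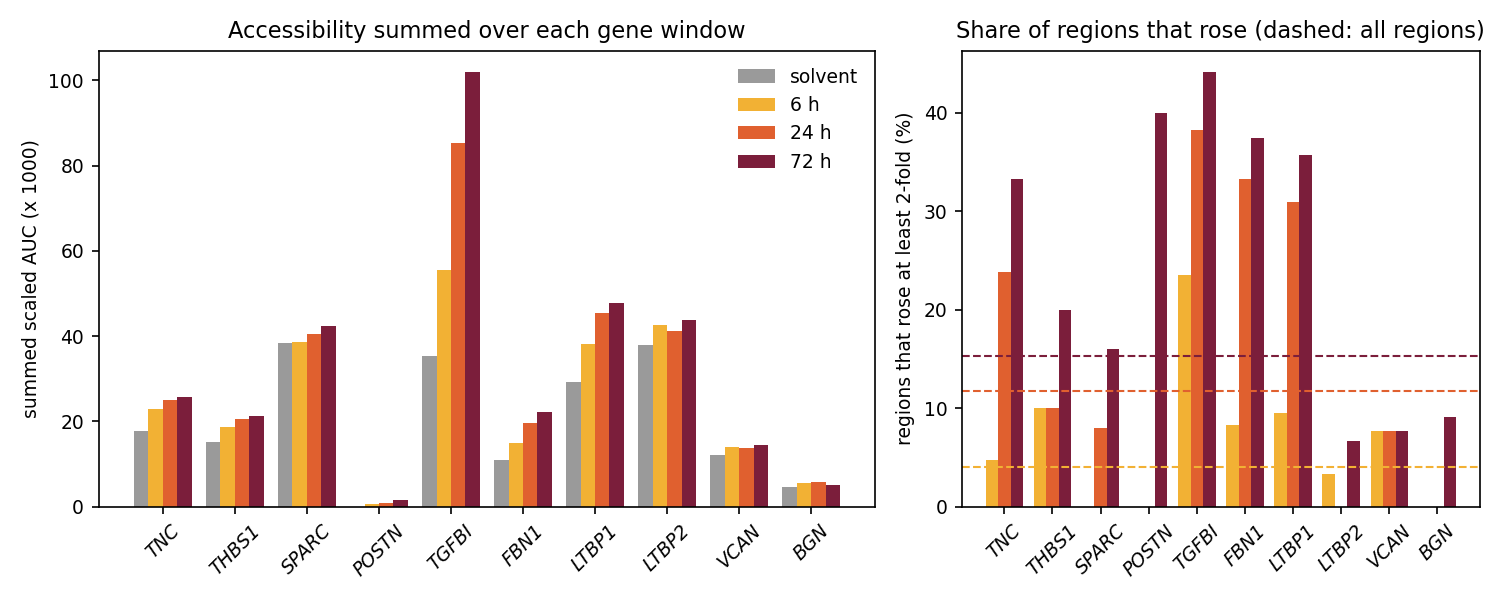
Left, scaled AUC summed over the window of each gene (gene body and 50 kb on either side) in the solvent, 6, 24 and 72 h lists, 1 bar per list with no replicate error. Right, percent of the regions of each window that rose at 6, 24 and 72 h, with dashed lines at the 4.03%, 11.7% and 15.3% of all regions; TGFBI has the highest bars at 72 h on both sides, with POSTN, FBN1, LTBP1 and TNC near it on the right, and LTBP2, VCAN and BGN stay below the 72 h line.

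**Figure D2:**
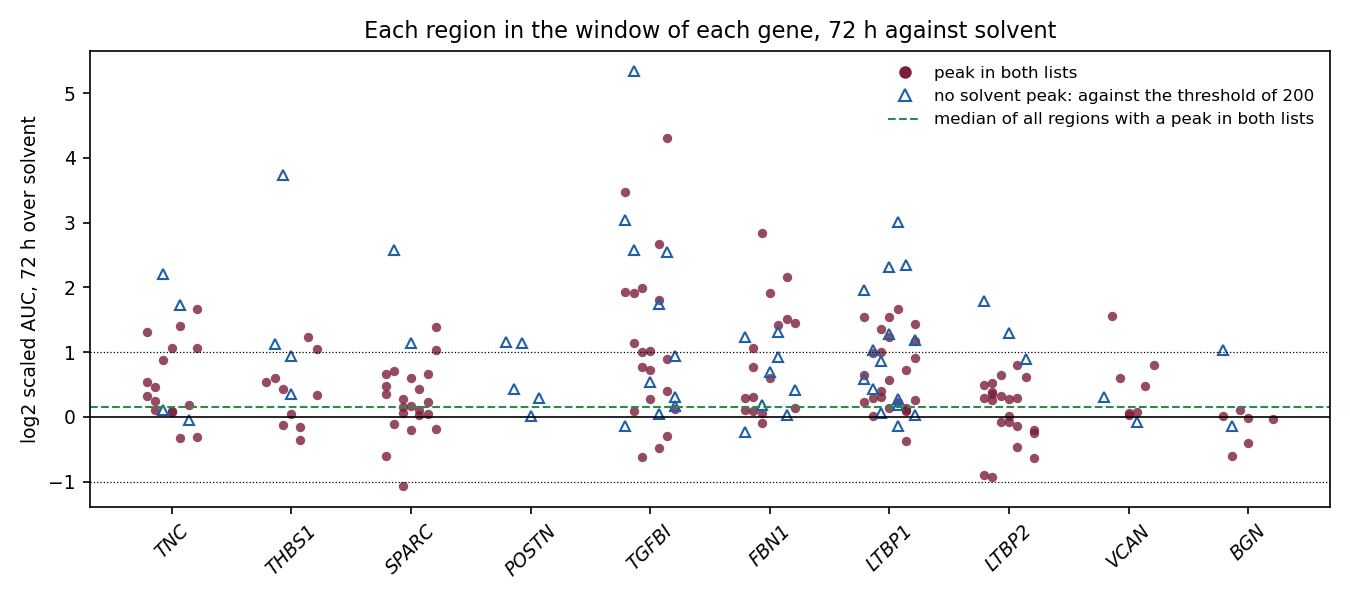
Each region of each window as the log2 ratio of its scaled AUC at 72 h to solvent. Filled circles had a peak in both lists. Open triangles had no solvent peak and are set against the threshold of 200. They are therefore ratios to that threshold and not to a measured solvent level. Dotted lines mark 2-fold, and the dashed line marks the median of 0.15 over all regions; TNC, FBN1 and LTBP1 have most of their points above 0, while SPARC and LTBP2 spread to both sides.

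The fasciclin-domain proteins were TGFBI, a collagen-binding protein named for its induction by TGFβ, and POSTN (periostin), which binds collagen and integrins. TGFBI (ENSG00000120708.17, chromosome 5, 136028988 to 136063818, plus strand, GRCh38) showed the greatest increase in sum of the 9 genes with a solvent peak. Its window held 34 regions, 21 with a peak in solvent and 31 with one at 72 h. The summed scaled AUC was 35428 in solvent and then 55390, 85168 and 101829 with 6, 24 and 72 h of TGFβ1, a ratio of 2.87 at 72 h. The DNA covered by peaks grew from 13.7 to 50.4 kb, while the AUC per covered base was 2.59 in solvent and 2.02 at 72 h. The larger sum therefore went with wider coverage and not with a higher mean level per covered base. When instead the AUC per base of each region was taken first and summed over regions, the log2 ratio was 0.27 in place of 1.52. Among 18784 windows of protein-coding genes, which overlap one another, 1.54% had as high a ratio of sums.

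Within TGFBI, the promoter region changed little. Its scaled AUC was 4481 in solvent and 4584, 5280 and 5893 after 6, 24 and 72 h, a log2 ratio of 0.40 at 72 h. The region with the largest gain had its summit in an intron 12.19 kb downstream of the TSS (chr5:136035866-136043328). It held 2605, 5268, 14599 and 16585 in the same order, a log2 ratio of 2.67. A further region from 136063021 to 136068165, which begins at the 3′ end of the gene and was picked after its values were seen, went from 615 to 4774, 9744 and 12125, a log2 ratio of 4.30. Past it, a region without a solvent peak (chr5:136073108-136078629), 1968 bp from the TSS of the non-coding RNA gene VTRNA2-1, reached 1691, 4705 and 8060 after 6, 24 and 72 h. The last value is 40.3 times the threshold of 200. These 3 stretches gained at each step, and most of the gain was present by 24 h. In the other direction, an intronic region 5.66 kb from the TSS held 551 in solvent and 302 at 6 h and had no peak at 24 or 72 h.

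**Figure D3:**
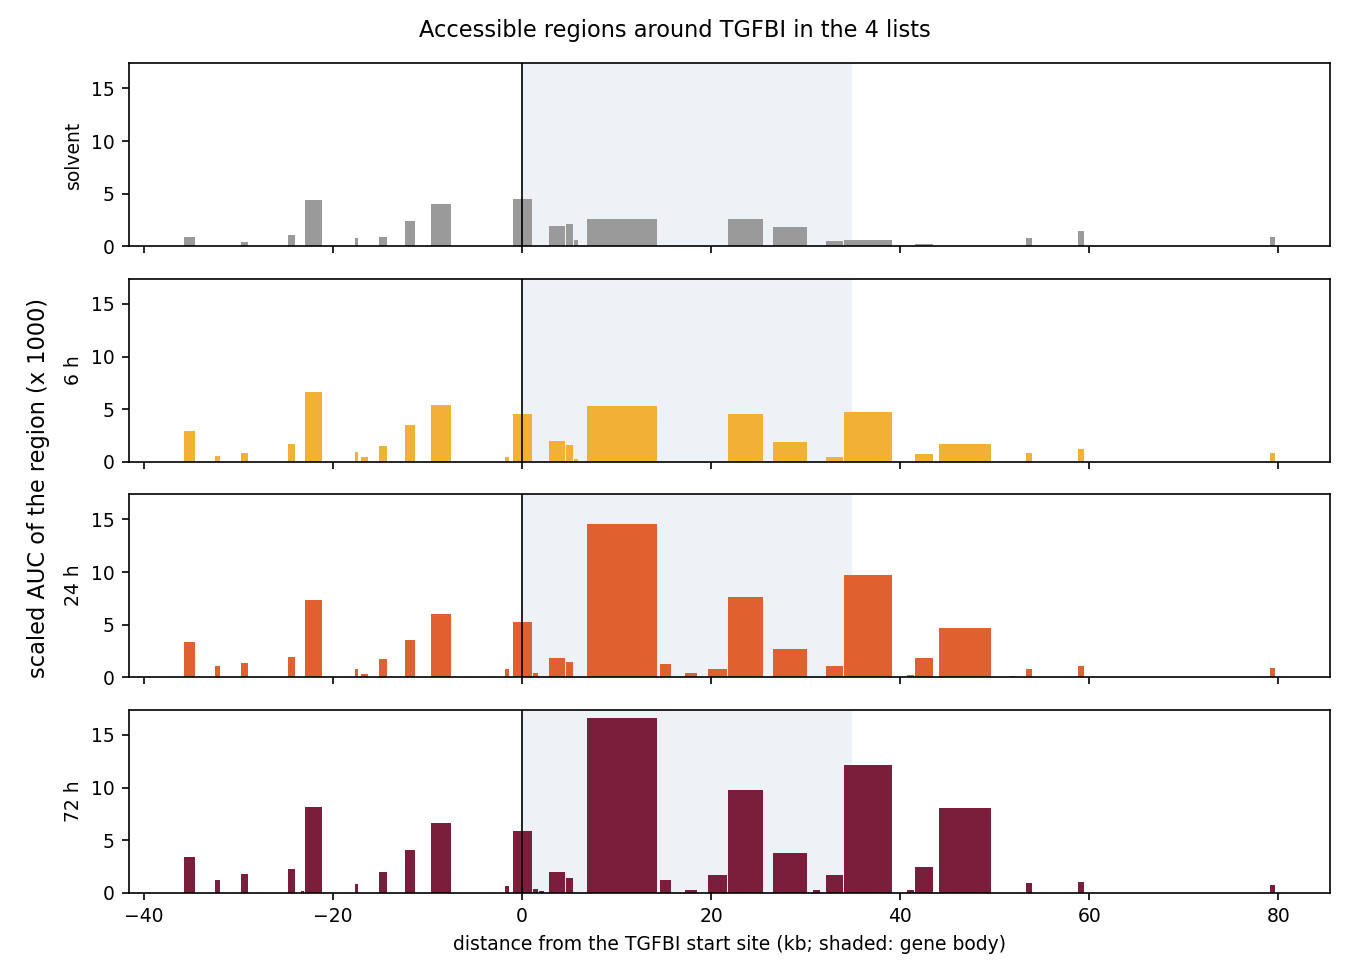
Scaled AUC (in units of 1000, linear axis from 0) of each merged region around TGFBI by its distance from the TSS in kb, 1 panel per list, with the gene body shaded. Bars span the merged region, of which the peaks of a single list may cover less; the promoter bar at 0 changes little, whereas the bars within the gene and up to 50 kb downstream of the TSS grow from solvent to 72 h.

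The summits of the strongest 72 h peaks in the region of largest gain and in the region without a solvent peak are shown as named examples of the DNA that gained accessibility at TGFBI. Both are on the plus strand of GRCh38, chr5:136041078-136041278 and chr5:136073819-136074019, and the capitals mark an E-box (CACCTG or its reverse complement). Neither held the AP-1 motif TGACTCA on either strand.
TGFBI intron: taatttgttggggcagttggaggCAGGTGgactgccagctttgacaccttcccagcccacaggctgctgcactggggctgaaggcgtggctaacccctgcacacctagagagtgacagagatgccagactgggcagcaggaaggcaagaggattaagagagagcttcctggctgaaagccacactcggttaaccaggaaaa
TGFBI downstream: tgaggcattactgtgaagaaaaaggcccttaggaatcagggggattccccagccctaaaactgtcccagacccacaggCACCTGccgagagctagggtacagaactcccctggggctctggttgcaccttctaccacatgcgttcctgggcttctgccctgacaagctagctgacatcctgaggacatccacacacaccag

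POSTN (ENSG00000133110.15, chromosome 13, 37562583 to 37598844, minus strand) had no peak in solvent and none at its promoter in any list. Its 5 regions summed to 572, 749 and 1606 after 6, 24 and 72 h. A region downstream of the gene, 410 bp from the TSS of LINC00547, went from no solvent peak to 301, 367 and 448, the last 2.24 times the threshold. An intronic region 3.43 kb from the TSS, named after its values were seen, went from no peak to 271, 382 and 442. Both rises were near the limit of what the threshold allows to be called. In the downstream window (chr13:37534312-37534512, plus strand), capitals mark an AP-1 motif. It is shown as the stronger of the rises at a gene without a called solvent peak.
POSTN downstream: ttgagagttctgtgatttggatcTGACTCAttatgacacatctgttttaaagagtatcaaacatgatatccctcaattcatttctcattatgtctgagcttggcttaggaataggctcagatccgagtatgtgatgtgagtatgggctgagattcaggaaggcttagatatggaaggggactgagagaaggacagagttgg

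The other matricellular glycoproteins were TNC (tenascin-C), which is deposited in wounds and tumour stroma, THBS1 (thrombospondin-1), which can activate latent TGFβ, and SPARC (osteonectin), which binds collagen and calcium. TNC (ENSG00000041982.17, chromosome 9, 115019575 to 115118207, minus strand) had 21 regions. Their summed scaled AUC was 17609 in solvent and 22824, 25012 and 25677 over the time course, a ratio of 1.46. Among coding-gene windows, 12.6% had a ratio at least as high. The number of regions that rose was 1, then 5, then 7. At least as many rises at 72 h were held by 1.90% of coding-gene windows with a region. Those windows had a median of 10 regions, fewer than the 21 of TNC, and the count was not adjusted for this. The promoter was already open, with 3352 in solvent and 3822, 3760 and 3961 with TGFβ1. The region of largest gain in AUC, in the gene at 81.29 kb from the TSS, did not pass the 2-fold rule, with 3816, 4874, 4937 and 4783. The strongest region without a solvent peak lay at -3.22 kb from the TSS (chr9:115121202-115121593). It reached 255, 686 and 920 after 6, 24 and 72 h, the last 4.60 times the threshold. At TNC the rises were thus of weak or absent solvent peaks beside strong regions that moved little.

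The summit of this upstream region (chr9:115121275-115121475, plus strand) is shown as the site nearest to the TNC promoter that opened. Capitals mark, in order, a RUNX motif (reverse complement of AACCACA), a TEAD motif (GGAATGT) and an E-box.
TNC upstream: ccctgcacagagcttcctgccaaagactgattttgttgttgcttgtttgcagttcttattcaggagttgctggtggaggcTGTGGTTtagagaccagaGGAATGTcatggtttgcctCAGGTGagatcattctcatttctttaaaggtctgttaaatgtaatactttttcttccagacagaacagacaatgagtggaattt

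THBS1 (ENSG00000137801.11, chromosome 15, 39581079 to 39599466, plus strand) had 20 regions. The summed scaled AUC was 15117 in solvent and 18650, 20574 and 21208 with TGFβ1, a log2 ratio of 0.49 at 72 h. Counting only regions whose nearest protein-coding TSS was that of THBS1, the log2 ratio was 0.026. Most of the gain in the sum thus lay in regions nearer to the TSS of another gene. Of these, only the region over the 3′ end described below overlaps THBS1 itself. Over the gene body alone, which includes that region, the log2 ratio was 0.59. The promoter region held 5559, 5587, 5617 and 5747 and was nearly level over the time course. The 2 rises at 6 h and the 4 at 72 h lay elsewhere. The largest was a region over the 3′ end of the gene including its UTR (chr15:39597522-39599837), 1089 bp from a TSS of the neighbouring gene FSIP1. It had no solvent peak and reached 1239, then 1694, then 2653, the last 13.3 times the threshold. To which of the genes it belongs cannot be told from these data.

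SPARC (ENSG00000113140.11, chromosome 5, 151661096 to 151686975, minus strand) had 25 regions, 23 of them with a solvent peak. The summed scaled AUC was 38314 in solvent and 38580, 40484 and 42424 with TGFβ1, a ratio of 1.11. Among coding-gene windows, 43.9% had a ratio at least as high. The near-level sum hid changes in both directions, with 4 regions that rose and 2 that fell at 72 h. The promoter region went from 691 to 909, 976 and 1088, a log2 ratio of 0.65 that did not pass the 2-fold rule. A region at -12.48 kb from the TSS held 1096, 1795, 2598 and 2856, a log2 ratio of 1.38. Another at -20.16 kb, 2191 bp from a TSS of the non-coding gene CLMAT3, had no solvent peak. It reached 326, 738 and 1197, the last 5.98 times the threshold. Both upstream regions increased at each time point. The larger of the falls, 48.98 kb downstream of the TSS and beyond the 3′ end, went from 1485 to 1093, 889 and 710, a log2 ratio of -1.07.

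The upstream region without a solvent peak is shown (chr5:151706974-151707174, plus strand, AP-1 motif in capitals) beside the one that was already open (chr5:151699294-151699494, no motif of the 5 searched), as the named regions of SPARC that rose upstream, which differ in the motifs found.
SPARC upstream, no solvent peak: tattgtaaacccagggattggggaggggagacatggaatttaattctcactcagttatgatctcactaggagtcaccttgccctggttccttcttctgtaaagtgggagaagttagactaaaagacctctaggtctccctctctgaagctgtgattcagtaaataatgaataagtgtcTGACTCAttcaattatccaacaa
SPARC upstream, open in solvent: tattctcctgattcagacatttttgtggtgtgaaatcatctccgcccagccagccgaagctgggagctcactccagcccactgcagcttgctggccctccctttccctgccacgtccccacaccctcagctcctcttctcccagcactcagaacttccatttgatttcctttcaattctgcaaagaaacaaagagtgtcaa

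Among the microfibril genes, FBN1 encodes fibrillin-1, the main polymer of microfibrils. FBN1 (ENSG00000166147.15, chromosome 15, 48408313 to 48645721, minus strand) had 24 regions. Their summed scaled AUC was 11032 in solvent and 14853, 19516 and 22245 after 6, 24 and 72 h, a ratio of 2.02. Among coding-gene windows, 4.24% had a ratio at least as high. The covered DNA grew from 5.67 to 10.9 kb, with 1.95 AUC per base in solvent and 2.04 at 72 h. The number of regions that rose was 2, then 8, then 9. FBN1 was the only one of the 10 genes whose promoter region rose by the 2-fold rule. That region (chr15:48644589-48646277) held 579 in solvent, 1125 after 6 h, 2088 after 24 h and 2181 after 72 h, a log2 ratio of 1.91, and it was also the region of largest gain in the window. A region in an intron 151.99 kb from the TSS had no peak in solvent or at 6 or 24 h and reached 498 at 72 h. By 24 h the log2 ratio of the promoter region was 1.85, with 0.96 reached by 6 h, whereas the intronic peak was called only in the last list.

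A RefSeq sequence of 250 bases upstream of an alternative FBN1 start (GRCh38.p14, chr15:48644971-48645220, minus strand, written 5′ to 3′ on that strand) lies inside the promoter region that rose. It is downstream of the canonical TSS at 48645709 from which distances are given here. It held none of the 5 motifs. Of 35116 RefSeq promoter sequences, cut to the same length, 4.20% held the AP-1 motif and 17.5% the E-box.
FBN1 before the alternative start: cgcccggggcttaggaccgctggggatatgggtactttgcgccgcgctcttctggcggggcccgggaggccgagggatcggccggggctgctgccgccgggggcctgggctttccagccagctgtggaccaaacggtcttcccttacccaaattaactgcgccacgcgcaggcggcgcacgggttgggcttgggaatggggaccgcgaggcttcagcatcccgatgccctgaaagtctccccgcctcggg

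LTBP1 tethers latent TGFβ to the matrix. LTBP1 (ENSG00000049323.16, chromosome 2, 32946953 to 33399509, plus strand) is the longest of the 10 genes and had 42 regions. The summed scaled AUC was 29249 in solvent and 38039, 45459 and 47726 with TGFβ1, a ratio of 1.63. The promoter region held 3588, 3210, 3445 and 3614 in the same order, a log2 ratio of 0.01 at 72 h. The number of regions that rose was 4, then 13, then 15, and 0.0988% of coding-gene windows held as many, a count that grows with the length of a gene. The strongest region without a solvent peak (chr2:33425585-33426168) reached 803, 1290 and 1617 after 6, 24 and 72 h, the last 8.08 times the threshold. It lies beyond the 3′ end of the gene, 478.91 kb from the TSS of LTBP1, and the nearest protein-coding TSS is that of RASGRP3. The rises inside the gene had their summits in introns or in an exon and reached between 409 and 1805 at 72 h.

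LTBP2 binds fibrillin-1 microfibrils but not latent TGFβ. LTBP2 (ENSG00000119681.12, chromosome 14, 74498183 to 74612378, minus strand) had 30 regions with a summed scaled AUC of 37962 in solvent and 42484, 41205 and 43812 with TGFβ1, a ratio of 1.15. The region over its TSS had a peak at 24 h alone, with a scaled AUC of 161. An adjacent region at -0.44 kb, named after its values were seen, held 1757 in solvent, 1518, 1402 and 1531. A region at -8.43 kb gained the most, from 3995 to 6026, 6186 and 6976, a log2 ratio of 0.80 that stayed under 2-fold. A region at -2.76 kb without a solvent peak reached 294, 336 and 688, and an intronic region 28.79 kb from the TSS fell from 412 to 248 and 187 and had no peak at 72 h. In all, 2 regions rose and 1 fell at 72 h. LTBP1 and LTBP2 therefore differed in the number of rises, 15 of 42 regions against 2 of 30, a difference that has no replicate check.

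The sites of largest gain in AUC at the LTBP genes are shown side by side, chr2:33425766-33425966 for LTBP1 and chr14:74620563-74620763 for LTBP2, both on the plus strand. Each held an AP-1 and a RUNX motif, which the capitals mark, although the LTBP2 site was already open in solvent and did not pass the 2-fold rule.
LTBP1 beyond the 3′ end: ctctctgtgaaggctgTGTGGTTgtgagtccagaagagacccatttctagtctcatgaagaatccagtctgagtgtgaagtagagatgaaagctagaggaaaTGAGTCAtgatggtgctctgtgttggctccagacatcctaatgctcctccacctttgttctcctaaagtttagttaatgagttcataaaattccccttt
LTBP2 upstream: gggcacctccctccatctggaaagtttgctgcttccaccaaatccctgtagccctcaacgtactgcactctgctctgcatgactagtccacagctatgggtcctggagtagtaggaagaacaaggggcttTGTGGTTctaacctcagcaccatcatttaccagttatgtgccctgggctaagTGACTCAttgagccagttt

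The proteoglycans VCAN (versican), a large chondroitin sulfate proteoglycan that binds hyaluronan, and BGN (biglycan), a small leucine-rich one, had the fewest rises. VCAN (ENSG00000038427.16, chromosome 5, 83471618 to 83582303, plus strand) had 13 regions with a summed scaled AUC of 12022 in solvent and 13930, 13627 and 14399 with TGFβ1, a ratio of 1.20. The promoter region went from 998 to 1233, 1553 and 1519, a log2 ratio of 0.61. Most of the signal sat in an intronic region 2.87 kb from the TSS, named after its values were seen, which held 8098, 7982, 7934 and 8295. Of the 13 regions, 1 rose, already at 6 h. The strongest region without a solvent peak, at -41.09 kb, reached 288 at 24 h.

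BGN (ENSG00000182492.16, chromosome X, 153494980 to 153509546, plus strand) had 11 regions with a summed scaled AUC of 4656 in solvent and 5470, 5725 and 5095 with TGFβ1. The ratio of 1.09 at 72 h fell below 1 with lists scaled on all shared regions (log2 -0.015) or cut to equal length (log2 -0.19). The region nearest to its TSS had a peak at 24 h alone, with 205, and another at 0.52 kb, named after its values were seen, had 232 at 6 h and 168 at 24 h. Neither had a peak in solvent or at 72 h. The only rise was 25.21 kb downstream of the TSS and 2237 bp from a TSS of ATP2B3, with no solvent peak and 220, 364 and 410 after TGFβ1.

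**Figure D4:**
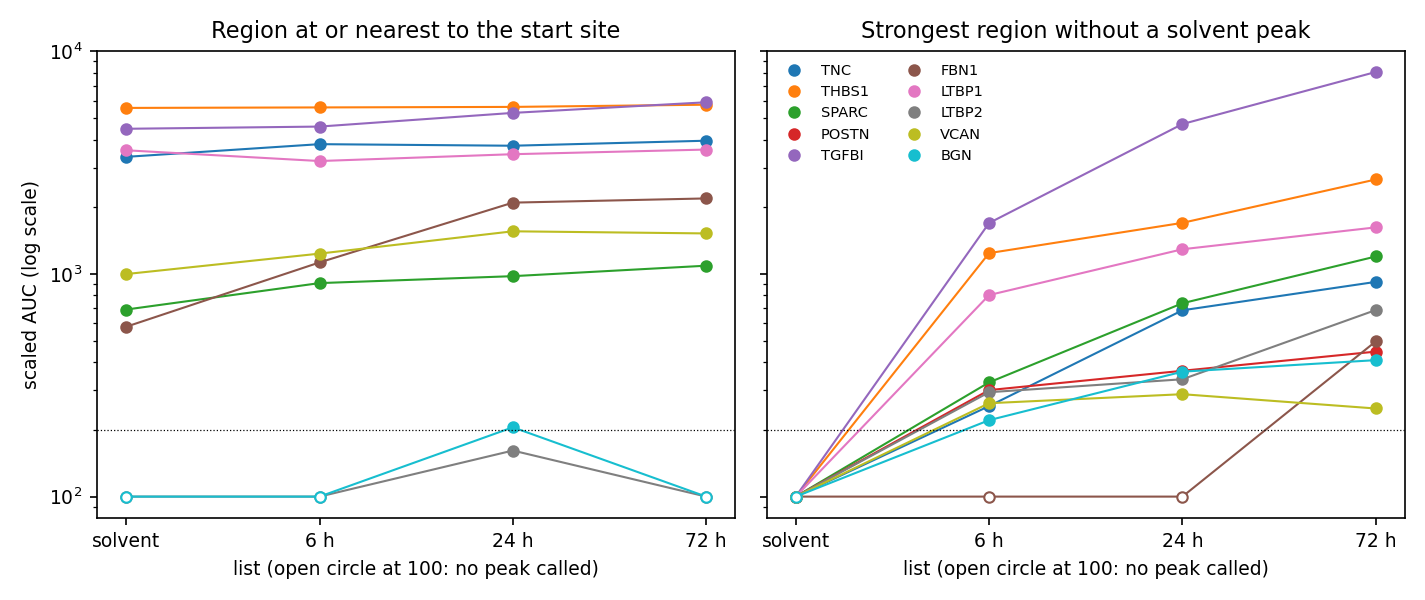
Scaled AUC on a log axis in the 4 lists for the promoter region (left) and the strongest region without a solvent peak (right) of each gene, 1 line per gene and open circles at 100 for lists without a peak. The dotted line is the solvent threshold of 200; on the left FBN1 goes from 579 to 2181 and passes SPARC and VCAN, and on the right TGFBI, THBS1 and LTBP1 end highest at 8060, 2653 and 1617. POSTN has no promoter region.

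Set side by side, the promoter regions and the rises were mostly separate. The region nearest to the TSS had a peak in solvent for 7 of the 10 genes, and at 72 h their scaled AUC stood between 0.01 (LTBP1) and 1.91 (FBN1) above solvent on the log2 scale. Further regions within 1 kb of the TSS with a solvent peak were lower at 72 h, with log2 ratios of -0.20 next to the LTBP2 TSS and -0.36 at 0.74 kb from that of THBS1. THBS1, LTBP1, TNC and TGFBI had promoter levels of 3210 or more in every list and log2 ratios of at most 0.40. SPARC, VCAN and FBN1 began between 579 and 998 and had log2 ratios of 0.61 or more. Levels of different regions also reflect their width, since the AUC is an area, so this order is of areas and not of levels per base.

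The search for 5 motifs covered both strands and the DNA within 100 bases of the summit of each region's strongest peak over the 4 lists. AP-1 factors, dimers of JUN and FOS proteins, bind TGACTCA. It was found in 25 of the 60 regions that rose at 72 h (41.7%) and in 31 of the 108 with a peak in both lists that neither rose nor fell (28.7%). Over all 126658 regions the shares were 44.9% of regions that rose, 29.7% of those that neither rose nor fell and 32.3% of all regions, close to the shares of the 225 regions. Between genes the counts varied, and they are given for 9 of the 10. AP-1 was found in 10 of 15 risen regions of LTBP1, 7 of 15 of TGFBI, 2 of 4 of SPARC, 2 of 2 of POSTN, 1 of 4 of THBS1, 1 of 7 of TNC, 0 of 2 of LTBP2 and 0 of 9 of FBN1. The single risen region of BGN held it. None of the 4 regions that fell held it.

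The E-box CACCTG, bound by the ZEB and SNAIL repressors of epithelial genes, was in 8 of the 60 risen regions (13.3%), of which 5 were at TGFBI, in 12.7% of all regions that rose and in 17.9% of all regions. The TEAD motif GGAATGT was in 5 of the 60 (8.33%), 7.04% of all regions that rose and 4.85% of all regions, and the RUNX motif AACCACA in 4 (6.67%), 10.8% and 6.48%. The palindromic SMAD motif GTCTAGAC was in 0 of the 60, 1 of the 225, 0.75% of all regions that rose and 0.295% of all regions. The median GC content of the windows was 46.8% for the risen regions and 50% for the 108 that neither rose nor fell, so that base composition moved with the groups. Its part in the motif counts was not tested.

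For comparison, 40 other genes for matricellular proteins, microfibril proteins and proteoglycans were treated in the same way. They had 590 regions outside the windows of the 10 genes, of which 33 (5.59%) had risen by 6 h, 73 (12.4%) by 24 h and 90 (15.3%) by 72 h, close to all regions, and 8 (1.36%) fell at 72 h. The median log2 ratio of summed AUC at 72 h was 0.31 over the 39 genes with a ratio, 0.49 over the 9 members with one and 0.11 over the coding-gene windows. None of these differences has a replicate check. Within families, the fibrillin gene FBN2 had 6 rises and a ratio of 1.48, FBN3 1 rise and 1.15, LTBP4 2 rises and 1.13, and LTBP3 0 rises and 1.00. The thrombospondin genes THBS2 and THBS4 had 2 rises each and ratios of 1.57 and 1.595, and THBS3 and COMP 0 rises each and 0.942 and 0.953. SPOCK1, which encodes a SPARC-related proteoglycan, had 18 rises and a ratio of 1.53, and the tenascin genes TNR, TNN and TNXB had 10, 7 and 1 rises and ratios of 1.81, 1.28 and 1.14. For the small leucine-rich proteoglycans, the relatives of BGN, the ratios included the highest of the list, 9.68 at DCN and 7.45 at LUM from 3 and 2 rises and small sums. DCN and LUM are neighbours, and their windows overlap. ASPN and FMOD of the same family had 1 rise each and ratios of 1.19 and 0.965. No rise was seen at 8 of the 40 genes, and PRG4 had no region. These genes are named as relatives of the 10, after their values were seen.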

How the data were processed

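ATAC-seq was measured in 8 MCF10A libraries, 2 per condition. Per the submitters' processing notes and the study's methods, the authors used Trimmomatic 0.38 for trimming and Bowtie2 2.4.5 for alignment to GRCh38 (inserts up to 1000 bp), and they removed duplicates with Picard and reads at a MAPQ of 30 or below or on the mitochondrial genome with SAMtools 1.4.1, called peaks with Genrich 0.5 on both replicates together (AUC above 200, adjusted p below 0.01) and removed blacklisted regions. The deposited signal value, the AUC, grows with depth and width and was not normalized by the authors. The study states a target depth, but the lists hold no reads, so the depth reached is unknown. List conditions were taken from the list names; the labels place solvent at time 0, while the study also describes control cells kept in solvent for 72 h.

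Peaks were merged, summed, scaled and called as described above in Python 3.11.15 (numpy 2.4.6, pandas 2.3.3), with genes from GENCODE 44 and sequences from hg38. The rules were tested on simulated data and bedtools 2.31.1. Peak lists of solvent, 6, 24 and 72 h held 86209, 107656, 118433 and 116720 peaks. For each gene the promoter region, the region of largest gain, the strongest without a solvent peak and the largest fall were named. The 10 genes, the 40 relatives and these rules were chosen with earlier results of these data known. The −log10 p and q columns were not used. The sequence and position of 1 region are not reported here.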

Additional observations from a re-analysis of the deposited data

How the results depend on the processing

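Of 92 recomputed counts and medians, 62 stayed within 1.5 times the count or close to the median, and 30 moved. Without scaling, 46 regions rose at 6 h and 71 at 24 h, with medians of 0.62, 0.65 and 0.57 at 6, 24 and 72 h. With scaling on all shared regions the medians were 0.15 at 24 h and 0.18 at 72 h. With an AUC of at least 400, 10, 28 and 38 regions rose and 1 fell. Lists of equal length left 2 falls. With the AUC per base, 41 regions rose at 6 h and 10 fell at 72 h, with medians of 0.12 at 24 h and 0.15 at 72 h. Requiring 50% reciprocal overlap gave 32 rises at 6 h and 22 falls. The gene bodies alone held 8, 22 and 31 rises among 117 regions, and 2 falls. A 1.5-fold rule gave 42 rises at 6 h, 76 at 24 h and 11 falls, and a 3-fold rule 7, 20 and 26 rises and 1 fall. Leaving out TGFBI, an alternative chosen after seeing the data, left 11 rises at 6 h. The cause of these changes was not tested. At 72 h the share of member regions that rose exceeded that of all regions under each alternative but the AUC per base. On that scale the median of 0.15 at 72 h stood beside 0.06 for all regions with a peak in both lists. Of 99 recomputed gene sums (log2 ratios at 72 h) 98 lay within 1.5-fold of the value given, the exception being TGFBI per base (0.27), although small ratios could vanish within that range. THBS1 went from 0.49 to 0.026 over regions whose nearest protein-coding TSS was its own, and to 0.59 over its gene body. SPARC went from 0.15 to 0.0019 with scaling on all shared regions and FBN1 from 1.01 to 0.61 per base. The sum of BGN turned below solvent with scaling on all shared regions (-0.015) and lists of equal length (-0.19), for the gene body alone (-0.04) and for regions nearest to it (-0.14).

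No paired analysis was possible because the deposited lists pool both replicates of a condition. Regions under the threshold of 200 could not be seen, and depth cannot be told apart from treatment in the number of peaks per list.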
